A study of Mus musculus with 6 samples.

Results

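Caspases, BCL2 family proteins, calpains and their regulators carry out or restrain cell death, and 35 of their genes were followed on arrays of muscle RNA from mice lacking the proteasome subunit Rpt3. The genes were taken by name, with earlier results of these data known. Of the 35 genes, 32 had a probe that names them alone and 30 were measured, that is, had a probe that was above background on 3 or more of the 6 arrays, out of 14731 genes measured in all. Casp8 and Bid share their probe with other gene symbols and Ripk1 had no probe named for it, so these 3 genes have no value here. Apaf1, the scaffold of the apoptosome, was above background on 1 Rpt3−/− and 1 Rpt3+/+ array, and Bcl2l1, which encodes BCL-XL, on 2 Rpt3−/− arrays and on no Rpt3+/+ array, and neither was tested.

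Apoptosis through mitochondria begins when BH3-only proteins activate BAX and BAK, which open the outer mitochondrial membrane unless anti-apoptotic BCL2 proteins hold them back. Released cytochrome c assembles the apoptosome with APAF1 and caspase-9, while death receptors activate caspase-8 at the cell surface, and both routes end in the executioner caspases. Calpains are calcium-dependent proteases that cut cytoskeletal and sarcomeric proteins in muscle, and each conventional calpain pairs a large catalytic subunit with the shared small subunit CAPNS1.

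The Rpt3−/− group was 3 female mice at 6 weeks of age, labelled Rpt3 null, in which Cre under the Mlc1f promoter, active in fast-twitch fibers, removed floxed Rpt3 (gene symbol Psmc4). The Rpt3+/+ group was 3 female mice of the same age, labelled control. The labels give both groups the strain mlc1f-Cre/Rpt3-floxed, and the study's text gives the controls as carrying Mlc1f-Cre with intact Rpt3 alleles. The tissue is the tibialis anterior in the labels and the gastrocnemius in the study's account of its results, and every array held total RNA of 1 mouse on its own slide. All 12 measured fast-fiber genes, among them the muscle creatine kinase gene Ckm, were above background on all 6 arrays. Cells other than the Cre-expressing fibers keep Rpt3.

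Between 57.0% and 74.5% of probes per array were above background, with the lowest share on the second Rpt3+/+ array, and the median background-subtracted intensity ranged from 52.7 to 114. The log2 intensity of Psmc4 was 10.01, 9.78 and 9.85 in Rpt3−/− mice and 11.16, 10.91 and 11.06 in Rpt3+/+ mice. It was 2.24-fold lower in Rpt3−/− mice (log2 fold change -1.17, SE 0.13, limma adjusted p = 0.000310, a linear model fitted over all measured genes). In bulk RNA, fewer cells of a type and less RNA per cell cannot be told apart.

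In Rpt3−/− mice 6 of the 30 measured genes rose and 1 fell (limma, adjusted p under 0.05). The genes that rose were Capns1, Pdcd6, Bax, Bak1, Mcl1 and Bad, and the gene that fell was Endog. Over all measured genes 19.3% were called, 12.7% as higher and 6.56% as lower, and the 7 calls made 23.3% of the apoptosis genes. The 6 higher genes made 20% of them and the 1 lower gene 3.33%, and the difference from the shares of all genes was not tested. The unpaired test of the study's methods, adjusted in the same way, called 3 as higher and 1 as lower, with 9.28% of all genes. The median log2 fold change of the 30 genes was 0.22 and that of all measured genes -0.01, and 22 of the 30 lay above 0, against 48.4% of all measured genes. At an unadjusted p under 0.05 from limma, 12 apoptosis genes were higher and 2 lower, with 19.2% and 12.9% of all genes. The groups did not overlap for 15 of the 30 genes, 14 of them higher, with a background of 36.8% of all genes in either direction. For 24 of the 30 the log2 fold change lay between -0.5 and 0.5. The offset of 50 added in the background correction compresses the differences of dim genes. With the local background subtracted instead 18 lay in that range, and the values were 1.14 for Bik, 0.82 for Bcl2, 0.80 for Casp4, 0.79 for Bad and 0.70 for Ripk3, of which that of Bad passed. With each array centred on Actb, which encodes β-actin, the split became 3 higher to 9 lower. The 9 were Endog and, uncalled in the reported setting, Casp9, Bcl2l2, Birc2, Xiap, Aifm1, Cflar, Fas and Capn1. With median centring the split was 8 to 1. The same scalings gave 640 higher to 7989 lower and 2556 to 600 among all genes, where the reported setting gave 1870 to 967. Centring on Actb moved the median of all genes to -0.46 and that of the apoptosis genes to -0.23, since Actb itself was higher by 0.45 on the log2 scale (limma adjusted p = 0.0294). Its call was lost on omission of the first Rpt3−/− array (0.105), of the third (0.102) or of the third Rpt3+/+ array (0.145).

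**Figure D1:**
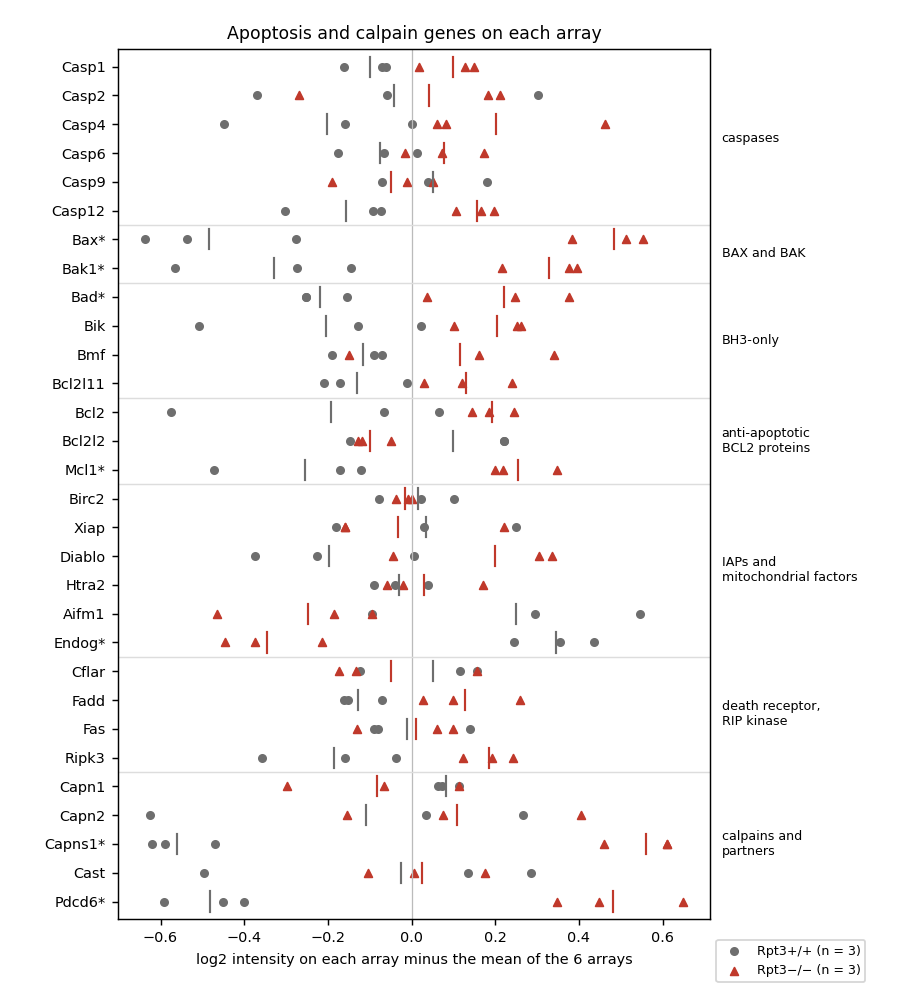
Each point is 1 array, placed by its log2 intensity minus the mean of the 6 arrays for that gene, with triangles for the 3 Rpt3−/− arrays, circles for the 3 Rpt3+/+ arrays, vertical bars for group means and stars for the 7 genes past an adjusted p of 0.05. The groups stand widely apart for Capns1, Pdcd6 and Bax and interleave for Birc2, Xiap and Fas.

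**Figure D2:**
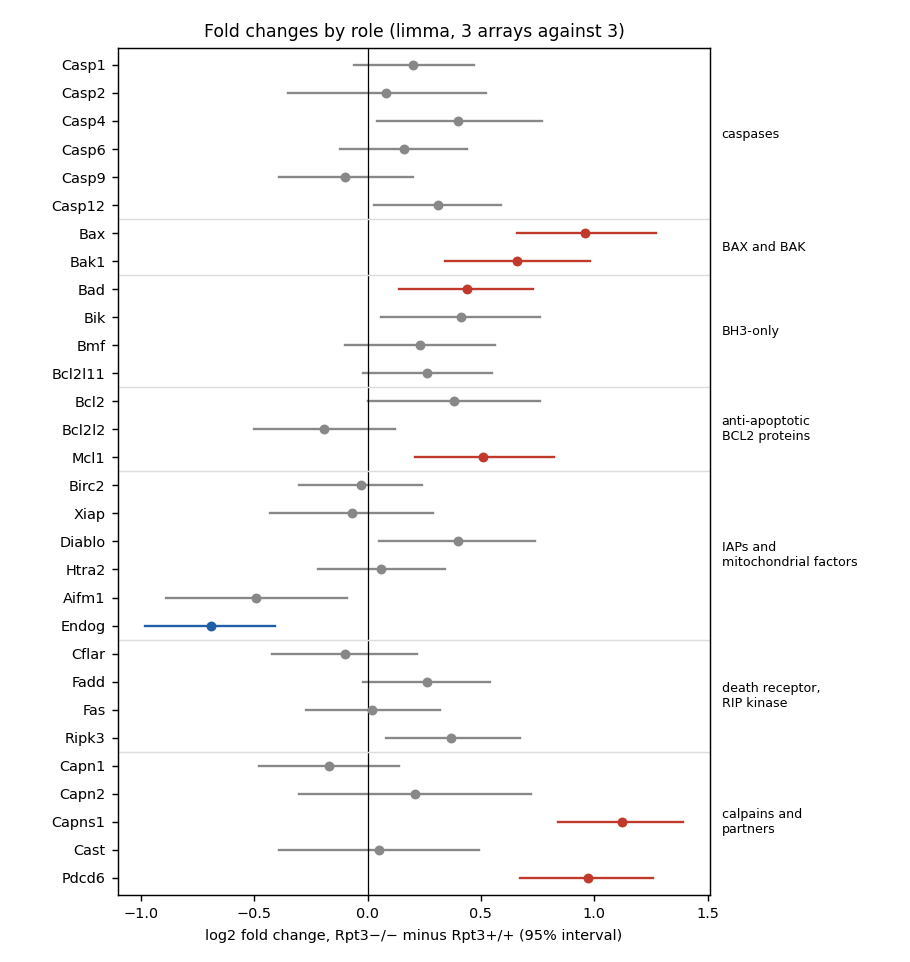
Points are log2 fold changes, Rpt3−/− minus Rpt3+/+, with the 95% interval from limma that is not adjusted for the number of genes, in order of role, and red and blue mark genes past an adjusted p of 0.05 as higher and lower. Most intervals lie between -0.5 and 1, and the largest values are those of Capns1 (1.12), Pdcd6 (0.97) and Bax (0.96).

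The promoters of 5 of the called genes are shown so that the 4 with the largest rises in the reported setting, the pore-forming pair Bax and Bak1 and the calcium-binding pair Capns1 and Pdcd6, can be compared with Endog, the gene that fell. Each is the 250 bases before the RefSeq start site in GRCm38.p6, written 5′ to 3′ along the gene, at chr7:45466899-45467148 on the minus strand for Bax, chr17:27028628-27028877 on the minus strand for Bak1, chr7:30195154-30195403 on the minus strand for Capns1, chr13:74317327-74317576 on the minus strand for Pdcd6 and chr2:30171274-30171523 on the plus strand for Endog. Capitals mark matches, on either strand, to any of 6 motifs.
Bax: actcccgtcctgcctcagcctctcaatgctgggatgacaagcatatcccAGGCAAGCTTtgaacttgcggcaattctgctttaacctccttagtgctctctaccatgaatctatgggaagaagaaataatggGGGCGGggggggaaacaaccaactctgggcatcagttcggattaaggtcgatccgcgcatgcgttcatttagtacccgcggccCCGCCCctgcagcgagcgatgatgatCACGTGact
Bak1: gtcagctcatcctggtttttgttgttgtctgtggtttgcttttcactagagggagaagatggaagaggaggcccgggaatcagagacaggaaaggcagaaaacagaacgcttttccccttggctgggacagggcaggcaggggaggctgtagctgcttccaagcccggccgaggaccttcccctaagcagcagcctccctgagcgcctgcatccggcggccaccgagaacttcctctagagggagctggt
Capns1: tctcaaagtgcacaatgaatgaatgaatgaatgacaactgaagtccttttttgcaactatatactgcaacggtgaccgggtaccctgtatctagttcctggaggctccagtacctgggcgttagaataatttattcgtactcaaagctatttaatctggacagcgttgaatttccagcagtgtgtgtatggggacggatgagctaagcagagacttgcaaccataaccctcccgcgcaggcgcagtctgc
Pdcd6: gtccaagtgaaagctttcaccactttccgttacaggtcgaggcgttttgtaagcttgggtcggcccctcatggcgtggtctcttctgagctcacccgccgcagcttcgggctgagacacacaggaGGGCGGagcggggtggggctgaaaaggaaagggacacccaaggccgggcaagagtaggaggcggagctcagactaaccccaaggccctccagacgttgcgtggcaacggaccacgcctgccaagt
Endog: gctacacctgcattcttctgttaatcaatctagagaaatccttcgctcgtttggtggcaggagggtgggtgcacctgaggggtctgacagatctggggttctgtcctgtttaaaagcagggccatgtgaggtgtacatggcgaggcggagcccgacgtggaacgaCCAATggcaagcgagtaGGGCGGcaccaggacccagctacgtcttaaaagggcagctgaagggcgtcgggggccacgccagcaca
The motifs searched were the antioxidant response element TGACNNNGC, the heat shock element GAANNTTC, the CCAAT box CCAAT, the GC box GGGCGG, the E-box CACGTG and the p53 half-site. They occur in 10.2%, 6.69%, 33.8%, 32.7%, 6.02% and 7.13% of 32851 mouse promoters of the same length, in that order. The Bax window held 2 GC boxes, starting 118 and 35 bases before the start site, an E-box 9 bases and a p53 half-site 201 bases before it. The window of Pdcd6 held 1 GC box at 125 bases, and that of Endog a CCAAT box at 85 and a GC box at 68 bases. None of these letters was found in the windows of Bak1 and Capns1, and no motif was shared by the 4 genes with the largest rises. The windows of Bad and Mcl1, which also rose, were searched but are not printed. At its first start site Bad had a heat shock element at 30 bases and GC boxes at 209, 66 and 23 bases. Its second start site had a CCAAT box at 48 bases, and Mcl1 had a GC box at 20 bases.

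BAX and BAK, the proteins that form the mitochondrial pore, were both encoded by genes that rose. The log2 intensity of Bax was 8.68, 8.51 and 8.64 in Rpt3−/− mice and 7.59, 7.85 and 7.49 in Rpt3+/+ mice. Every Rpt3−/− array lay above every Rpt3+/+ array, by more than the range within either group. Bax was 1.95-fold higher (8.61 ± 0.09 against 7.64 ± 0.18, SD, n = 3 each; log2 fold change 0.96, SE 0.14, limma adjusted p = 0.00111). Bak1 stood at 8.23, 8.07 and 8.25 in Rpt3−/− mice and at 7.58, 7.29 and 7.71 in Rpt3+/+ mice, again without overlap. It was 1.58-fold higher (8.18 ± 0.10 against 7.53 ± 0.21, SD, n = 3 each; log2 fold change 0.66, SE 0.14, limma adjusted p = 0.0102). Bax passed in every alternative setting run, from 0.51 with arrays centred on Actb to 1.21 with the local background subtracted, whereas Bak1 did not pass with arrays centred on Actb (0.21, limma adjusted p = 0.284) or by the unpaired test named in the study's methods (adjusted p = 0.0660).

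Of the 5 BH3-only genes, whose products act upstream of BAX and BAK, 4 were measured and 1 rose. Bad, whose product neutralizes BCL2 and BCL-XL, had log2 intensities of 7.19, 6.98 and 7.32 in Rpt3−/− mice and 6.69, 6.79 and 6.69 in Rpt3+/+ mice, of which 2 of the 3 Rpt3+/+ arrays were above background. The groups did not overlap, though the lowest Rpt3−/− array stood close to the highest Rpt3+/+ array. Bad was 1.35-fold higher (7.16 ± 0.17 against 6.73 ± 0.06, SD, n = 3 each; log2 fold change 0.44, SE 0.13, limma adjusted p = 0.0448). The call was lost without the first Rpt3−/− array (limma adjusted p = 0.129), the third Rpt3−/− array (0.172), the first Rpt3+/+ array (0.0590) or the third Rpt3+/+ array (0.168). It was lost too with the replicate numbers as a block (0.0852), with default array weights (0.147), with no filter on dim probes (0.0509) and by the methods' test (adjusted p = 0.0881). Its log2 fold change was 0.79 with the local background subtracted (limma adjusted p = 0.0286). With arrays centred on Actb its log2 fold change was -0.01. The log2 fold change was 0.41 for Bik (limma adjusted p = 0.0989), which was above background on 1 Rpt3+/+ array, 0.26 for Bcl2l11, which encodes BIM (0.190), and 0.23 for Bmf (0.332). Bik passed without the second Rpt3+/+ array (0.52, limma adjusted p = 0.0295).

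Among the anti-apoptotic BCL2 genes, 1 of the 3 measured rose. Mcl1 encodes a short-lived BCL2 relative that sequesters BAK and BIM and is itself removed by the proteasome. Its log2 intensity was 10.50, 10.65 and 10.52 in Rpt3−/− mice and 9.83, 10.18 and 10.13 in Rpt3+/+ mice. The first Rpt3+/+ array was the lowest, and the groups did not overlap. Mcl1 was 1.43-fold higher (10.56 ± 0.08 against 10.04 ± 0.19, SD, n = 3 each; log2 fold change 0.51, SE 0.14, limma adjusted p = 0.0259). The call was lost on omission of the first (limma adjusted p = 0.0689), the second (0.0956) or the third Rpt3−/− array (0.0746) or of the third Rpt3+/+ array (0.0771), with arrays centred on Actb (0.06, limma adjusted p = 0.761), with the local background subtracted (0.0605), in the deposited value table (0.0729) and by the methods' test (adjusted p = 0.0821). Bcl2, the founding member of the family, had a log2 fold change of 0.38 (limma adjusted p = 0.151). Its second Rpt3+/+ array was the lowest at 6.26, below the dimmest probe counted above background on that array (6.74). Bcl2l2, which encodes BCL-W, had a log2 fold change of -0.19 (limma adjusted p = 0.388).

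The calpain group held 2 of the 3 largest changes of the 30 genes in the reported setting, and neither of them was in a catalytic subunit. Capns1, the small subunit shared by calpain-1 and calpain-2, had log2 intensities of 12.20, 12.35 and 12.35 in Rpt3−/− mice and 11.15, 11.12 and 11.27 in Rpt3+/+ mice. The replicates of each group lay close together and the groups far apart. Capns1 was 2.17-fold higher (12.30 ± 0.09 against 11.18 ± 0.08, SD, n = 3 each; log2 fold change 1.12, SE 0.12, limma adjusted p = 0.000274). Pdcd6 encodes ALG-2, a calcium sensor with the same penta-EF-hand fold as the calpain small subunit. It stood at 10.35, 10.45 and 10.65 in Rpt3−/− mice and at 9.41, 9.60 and 9.55 in Rpt3+/+ mice, with no overlap. Pdcd6 was 1.95-fold higher (10.49 ± 0.15 against 9.52 ± 0.09, SD, n = 3 each; log2 fold change 0.97, SE 0.13, limma adjusted p = 0.000916). Both genes passed in every alternative setting run, the omission of each array included, with the lowest values, 0.67 for Capns1 and 0.52 for Pdcd6, on arrays centred on Actb. The order of Bax, Capns1 and Pdcd6 depended on the setting, and Bax (1.21) lay above Capns1 (1.14) with the local background subtracted.

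The other 3 genes of the calpain group overlapped between Rpt3−/− and Rpt3+/+ mice and did not pass. The log2 fold change was -0.17 for Capn1 (95% interval -0.48 to 0.14) and 0.21 for Capn2 (-0.30 to 0.72), the catalytic subunits of calpain-1 and calpain-2, and 0.05 for Cast (-0.39 to 0.49), which encodes their inhibitor calpastatin. The differences between the small and the catalytic subunits were not tested. Capn2 and Cast varied most among the Rpt3+/+ mice (SD 0.46 and 0.41), where the first array was the lowest for both.

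Endog, a mitochondrial nuclease that can move to the nucleus and cut DNA, was the gene that fell. Its log2 intensity was 8.60, 8.67 and 8.83 in Rpt3−/− mice and 9.40, 9.48 and 9.29 in Rpt3+/+ mice. All Rpt3−/− arrays lay below all Rpt3+/+ arrays. Endog was 1.62-fold lower (8.70 ± 0.12 against 9.39 ± 0.09, SD, n = 3 each; log2 fold change -0.69, SE 0.13, limma adjusted p = 0.00442), and it passed in every alternative setting run, from -0.54 with median centring to -1.14 with arrays centred on Actb. Aifm1, which encodes the apoptosis-inducing factor of the inner mitochondrial membrane, had a log2 fold change of -0.49 (limma adjusted p = 0.0850), and the groups overlapped through the first Rpt3+/+ array. It passed without that array (-0.66, limma adjusted p = 0.00771). Diablo, whose product SMAC relieves caspases from their inhibitors, had a log2 fold change of 0.40 (0.106), which passed without the second Rpt3+/+ array (0.50, 0.0385) and with median centring (0.56, 0.0182). Htra2, a mitochondrial protease released with SMAC, stood at 0.06. The inhibitor of apoptosis genes Birc2 and Xiap stood at -0.03 (95% interval -0.30 to 0.24) and -0.07 (-0.43 to 0.29).

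None of the 6 measured caspase genes passed. At an unadjusted p under 0.05 limma gave 2 of them, Casp4 and Casp12, as higher, with 19.2% of all genes. The unpaired test of the study's methods gave 2, Casp1 and Casp12, as higher before and 0 after adjustment. The share of all genes higher by that test before adjustment was not counted. Casp12, which encodes a caspase tied to the endoplasmic reticulum in rodents, had a log2 fold change of 0.31 (95% interval 0.03 to 0.59, limma adjusted p = 0.114) and passed with median centring (0.51, 0.0273). Casp4, which encodes a sensor of intracellular lipopolysaccharide, had one of 0.40 (0.04 to 0.77, 0.120). It passed without the first Rpt3+/+ array (0.50, limma adjusted p = 0.0416). For Casp1, the interleukin-1β-processing caspase, the log2 fold change was 0.20 (-0.06 to 0.47). The 3 Rpt3−/− arrays of Casp1, Casp4 and Casp12 each lay above the 3 Rpt3+/+ arrays. Among all genes 36.8% did not overlap in either direction. Among the caspases of apoptosis itself, the initiators Casp2 and Casp9 stood at 0.08 (-0.35 to 0.52) and -0.10 (-0.39 to 0.20), and the executioner Casp6 at 0.16 (-0.12 to 0.44), all with overlapping groups. Casp9 passed as lower with arrays centred on Actb (-0.55, limma adjusted p = 0.0119).

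None of the 4 measured genes of the death receptor and RIP kinase group passed either. At an unadjusted p under 0.05, 1 was higher by limma, with 19.2% of all genes. By the unpaired test of the methods 2 were higher before adjustment, where the share of all genes was not counted, and 0 remained after it. Ripk3, the kinase that triggers necroptosis, had a log2 fold change of 0.37 (95% interval 0.08 to 0.67, limma adjusted p = 0.0763). Its groups did not overlap, with 2 of 3 Rpt3+/+ arrays above background, and it passed without the first Rpt3+/+ array (0.45, 0.0346). Fadd, the adaptor between death receptors and caspase-8, stood at 0.26 (-0.02 to 0.54), the receptor gene Fas at 0.02 (-0.27 to 0.32) and Cflar, which encodes the caspase-8 inhibitor c-FLIP, at -0.10 (-0.42 to 0.22). With arrays centred on Actb the log2 fold change of Fas was -0.43 (limma adjusted p = 0.0350).

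The brightest probe stood for each gene, and 4 of the genes had a further probe above background. Cflar and Casp6 differed between their probes. The dimmer Cflar probe had log2 intensities of 7.72, 7.85 and 7.76 in Rpt3−/− mice and 8.76, 8.48 and 8.37 in Rpt3+/+ mice, a log2 fold change of -0.76 (SE 0.14, limma adjusted p = 0.00441 over 16957 probes). The brightest Cflar probe gave -0.10. The dimmer Casp6 probe had 7.24, 7.34 and 7.13 against 7.99, 7.52 and 7.67, a log2 fold change of -0.49 (SE 0.15, limma adjusted p = 0.0474 over the same probes), where the brightest gave 0.16. Which part of the transcript each probe reads was not analysed here. The dimmer Cast probe stood at -0.39 (limma adjusted p = 0.311), and the 3 Birc2 probes between -0.06 and -0.01.

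**Figure D3:**
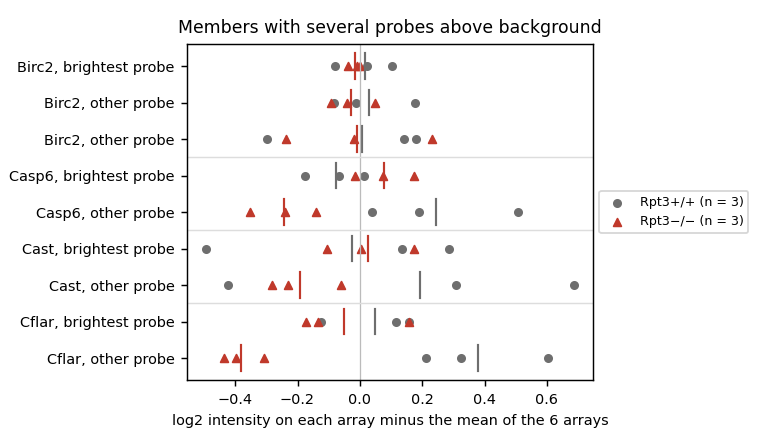
Each point is 1 array, placed by its log2 intensity minus the mean of the 6 arrays for that probe, for the 4 genes with more than 1 probe above background, with triangles for Rpt3−/−, circles for Rpt3+/+ and bars for group means. The groups separate on the dimmer probe of Cflar (-0.76) and of Casp6 (-0.49) and overlap on the brightest probe of each.

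Of 125 other cell death genes listed by pathway, 92 were measured, 20 rose and 8 fell, 30.4% against the 19.3% of all genes, with a median log2 fold change of 0.08. The split was 24 to 4 with median centring and 9 to 39 with arrays centred on Actb. The count of falls was 2 without the first Rpt3−/− array, 5 without the second, 4 without the third, 13 without the first Rpt3+/+ array and 2 without the third, and that of rises was 12 without the third Rpt3+/+ array.

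The genes of the mitochondrial pathway outside the 35 moved in both directions. Pmaip1, which encodes the BH3-only protein NOXA that binds MCL1, was at least 1.51-fold higher in Rpt3−/− than in Rpt3+/+ mice, in none of which its probe stood well above background (limma adjusted p = 0.00639). That bound takes, for each Rpt3+/+ array, the dimmest probe counted above background, or Pmaip1 where it was brighter, and sets their mean against the Rpt3−/− mean. Pmaip1 entered the fit only through the 3 Rpt3−/− arrays, so its call is not independent of the filter. The call was lost by the methods' test (adjusted p = 0.0938) and with default array weights (limma adjusted p = 0.0507). By contrast Cycs, which encodes the cytochrome c that the pore releases, fell by 0.64 on the log2 scale (11.84 ± 0.14 against 12.49 ± 0.04, SD, n = 3 each, limma adjusted p = 0.00609), and the outer membrane channel genes Vdac1 and Vdac3 fell by 0.61 and 0.44. With median centring none of the 3 passed, at -0.32 for Cycs (limma adjusted p = 0.112), -0.35 for Vdac1 (0.0859) and -0.10 for Vdac3 (0.670), nor did they in the deposited value table, at -0.34 (0.251), -0.53 (0.0598) and -0.13 (0.691). The call of Vdac1 was lost without the first Rpt3−/− or the third Rpt3+/+ array (limma adjusted p = 0.0513 and 0.0645), and that of Vdac3 without any single array other than the second Rpt3+/+ array (0.0866 to 0.163). By limma 0 of the 14 further apoptosome and mitochondrial release genes rose, also at an unadjusted p under 0.05 and by the methods' test.

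Further rises, given as log2 fold changes, were in genes of the wider BCL2 and BAX inhibitor families, with 1.23 for Tmbim4, a Golgi membrane protein, 0.48 for its relative Tmbim1, 0.55 for the cochaperone gene Bag1 and 0.42 for Bnip1. Among inhibitors of apoptosis Birc5, which encodes survivin, a protein of dividing cells, rose by 1.04 and Naip5, a sensor of bacterial flagellin, by 0.89, while Api5 fell by 0.48. The tumor necrosis factor receptor gene Tnfrsf1a rose by 0.85 and the deubiquitylase gene Cyld by 1.26. In the necroptosis and pyroptosis list Mlkl, the membrane-permeabilizing target of RIPK3, rose by 1.07 and Ninj1, which acts in plasma membrane rupture, by 0.76. Calls were lost for Bag1 without the third Rpt3−/− or the third Rpt3+/+ array (limma adjusted p = 0.0658 and 0.0660), for Tmbim1 without any Rpt3−/− array or the third Rpt3+/+ array (0.0568 to 0.126), for Bnip1 without any array other than the second Rpt3+/+ array (0.0544 to 0.205) and for Api5 without any array other than the first Rpt3+/+ array (0.0733 to 0.201). With arrays centred on Actb the log2 fold change was -0.03 for Bnip1, 0.03 for Tmbim1, 0.10 for Bag1 and 0.31 for Ninj1, with no call, and with median centring Api5 stood at -0.35 (limma adjusted p = 0.105). With the mean of probes in place of the brightest probe, Tmbim1 stood at 0.17 (limma adjusted p = 0.376) and Bnip1 at 0.25 (0.176).

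Among genes of nuclear execution, Dffa, which encodes the inhibitor of the caspase-activated DNase, fell by 0.76 and Dnase1l1 by 0.44, while the lysosomal DNase gene Dnase2a rose by 0.83, Acin1 by 0.54 and Cidea, a lipid droplet protein gene above background on 1 Rpt3+/+ array, by 0.53. By limma 0 of 7 further calpain genes rose, also at an unadjusted p under 0.05 and by the methods' test. Capn3, the muscle calpain bound to titin, had log2 intensities of 9.77, 9.75 and 9.54 in Rpt3−/− mice and 10.42, 10.53 and 10.55 in Rpt3+/+ mice and was 1.76-fold lower (log2 fold change -0.81, SE 0.13, limma adjusted p = 0.00181), and Capn7 fell by 0.86. The largest rise among these genes in the reported setting was that of Dap, a death-associated protein gene that acts on autophagy, with 10.38, 9.76 and 9.90 against 8.15, 8.28 and 8.21, a 3.48-fold difference (limma adjusted p = 0.000119). Anxa5, which encodes a phosphatidylserine-binding annexin, rose by 1.15, Pdcd5 by 0.67, Dad1, a subunit gene of the oligosaccharyltransferase, by 0.63, Pdcd7 by 0.55 and Pdcd2 by 0.52. Of these calls, the third Rpt3+/+ array was needed for Dffa, Dnase1l1, Acin1, Cidea, Capn7, Pdcd2, Pdcd7 and Dad1 (limma adjusted p = 0.0527, 0.144, 0.0799, 0.0700, 0.0602, 0.0905, 0.0788 and 0.0817 without it). They were lost also without the first Rpt3−/− array for Dffa, Dnase1l1, Capn7, Pdcd2, Pdcd7 and Dad1 (0.0516 to 0.155), the second for Dnase1l1, Acin1 and Dad1 (0.0554 to 0.102) or the third for Dffa, Dnase1l1, Cidea, Pdcd2 and Pdcd7 (0.0510 to 0.0754), and that of Dnase1l1 without the first Rpt3+/+ array (0.0825) and with median centring (-0.17, limma adjusted p = 0.482). With arrays centred on Actb the rises of Dnase2a (0.38), Pdcd5 (0.22), Dad1 (0.18), Pdcd7 (0.10), Acin1 (0.09), Cidea (0.08) and Pdcd2 (0.07) did not pass.

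**Figure D4:**
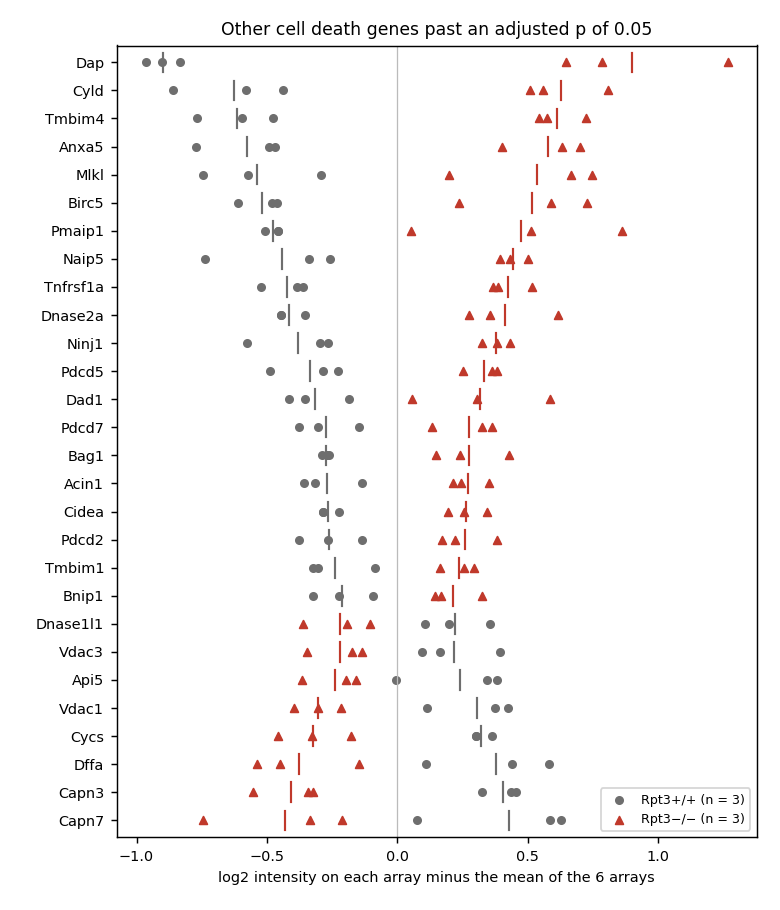
Each point is 1 array, placed by its log2 intensity minus the mean of the 6 arrays, for the 28 other cell death genes past an adjusted p of 0.05 from limma, with triangles for Rpt3−/−, circles for Rpt3+/+ and bars for group means. Dap shows the widest gap (1.80) and Capn7 the deepest fall (-0.86).

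Markers of several other cell and fiber types also differed between the groups. Of 17 measured macrophage markers 12 were higher and 0 lower, and their summed intensity was 9234 to 13454 in Rpt3−/− mice and 3740 to 4410 in Rpt3+/+ mice, while the defining markers Adgre1, Itgam and Ms4a7 were near background and Cd68 and Csf1r had no value. Satellite cell and regeneration markers were higher for 6 of 11 (15749 to 19311 against 9908 to 10185) with Pax7 near background. The 6 were Myog, Ncam1, Myh3, Myh8, Chrng and Tnnt2, while Myf5, Myod1, Cdh15, Vcam1 and Des, the brightest of the list, did not pass. Fibroblast markers were higher for 5 of 12 (36394 to 37091 against 23258 to 27570) and adipocyte markers for 3 of 6 (9156 to 10381 against 6631 to 7705). Slow-fiber genes were higher for 6 of 9 (25742 to 27423 against 17372 to 21689), whereas of 12 fast-fiber genes 1 was higher and 3 lower (209750 to 219970 against 237090 to 252000). Of 10 measured endothelial genes 0 passed in either direction by limma, and by the methods' test 0 passed after adjustment. At an unadjusted p under 0.05 limma gave 1 endothelial gene as lower, with 12.9% of all genes. Of 10 other leukocyte markers 2 were higher and 2 lower (3081 to 3143 against 3014 to 4056), with Ptprc, the pan-leukocyte gene, near background. The background for these counts is 12.7% of all measured genes called as higher and 6.56% as lower. With arrays centred on Actb the counts of higher and lower genes were 11 and 0 for macrophages, 6 and 0 for satellite cells and regeneration, 1 and 1 for fibroblasts, 2 and 1 for adipocytes, 4 and 1 for slow fibers, 0 and 8 for fast fibers, 0 and 7 for endothelium and 2 and 5 for other leukocytes. With median centring 9 fibroblast and 10 regeneration markers were higher, and with cyclic loess 9 fast-fiber genes were lower. The part of these cells and fibers in the changes of the apoptosis genes was not tested.

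**Figure D5:**
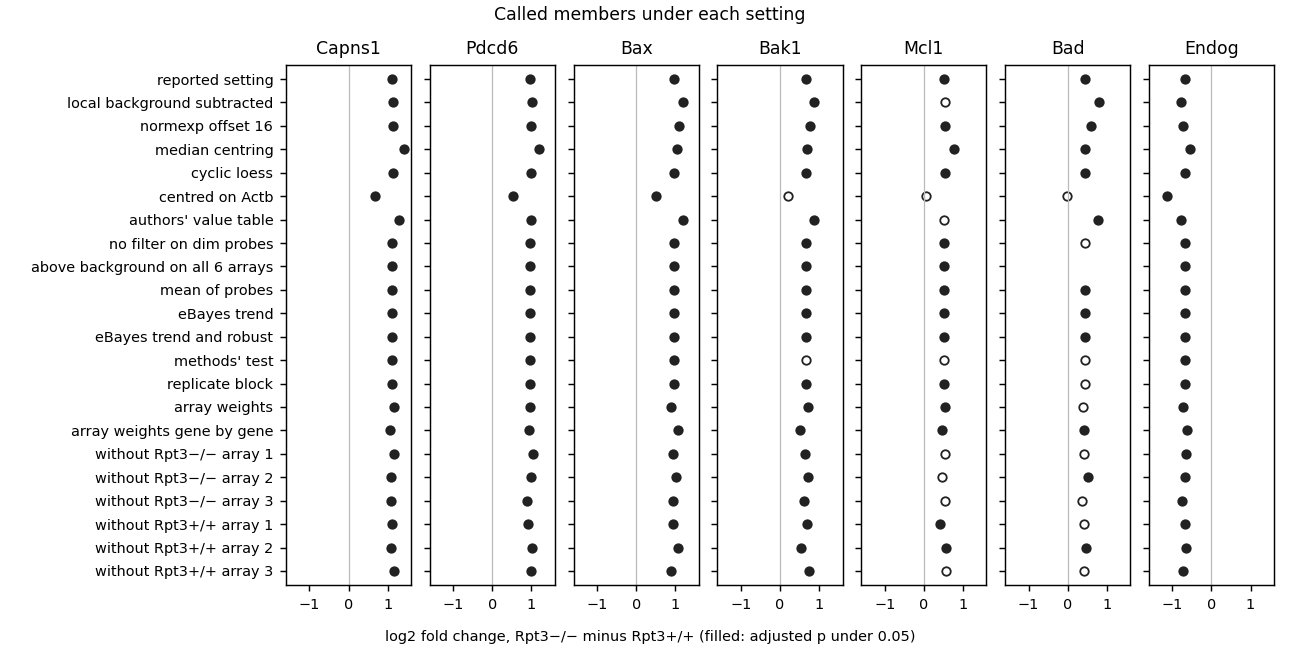
Each panel is 1 of the 7 called genes, each row a setting of the processing or the omission of 1 array, and the point its log2 fold change, Rpt3−/− minus Rpt3+/+, filled where the adjusted p was under 0.05. Capns1, Pdcd6, Bax and Endog are filled throughout, Bak1 is open with arrays centred on Actb and by the methods' test, and Mcl1 and Bad are open in several rows.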

How the data were processed

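The authors deposited CodeLink scanner reports, written by CodeLink Expression Analysis 5.0.0.31312, that hold for each spot an intensity, a local background intensity and a quality flag with no normalization between arrays, and a value table of processed intensities, whose columns all have a median of 89.0 and which was used only as an alternative. The direction, Rpt3−/− minus Rpt3+/+, follows from the labels, since each array held 1 sample in 1 color. Gene symbols came from the platform annotation, which gave 1 symbol to 21615 of the 34967 transcript probes and several to 681, whose probes were not used. It did not list 12671 probes, and for 535 of these the accession gave a name in the GRCm38.p6 gene table.

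With limma 3.58.1 in R 4.3.3 intensities were background corrected by normexp with an offset of 50, quantile normalized, converted to log2 and fitted with lmFit and eBayes over 14731 genes, with Benjamini-Hochberg adjustment and calls at an adjusted p under 0.05. Genes entered the fit through their brightest probe that carried no flag for a near-background, masked or contaminated spot on 3 or more of the 6 arrays. Values on each array are given for members past an adjusted p of 0.05 or with groups that do not overlap and a log2 fold change of at least 0.5 in size, and every other cell death gene past the threshold is named. The markers named and the further probes and genes with values on each array were chosen after their values were seen. The members and lists were chosen with earlier results of these data known, and some cell death genes are not reported here and are in no count of the lists. The alternatives were other background corrections, normalizations and filters, arrays centred on Actb, the deposited value table, the mean of probes, other variance models, array weights, the omission of each array, a replicate block and the unpaired parametric test of the methods. The steps were tested on simulated data. The labels do not say more of the replicates than that each array is 1 mouse, and the number of arrays limits the precision.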

Additional observations from a re-analysis of the deposited data

How the results depend on the processing

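Of 623 results for single apoptosis genes under alternatives, 580 kept their side of the threshold and, where called, their direction, 18 lost the call, 23 gained one and 2 changed direction, Bad to -0.01 and Fas to -0.43, both with arrays centred on Actb, which also turned Bnip1 to -0.03 among the other cell death genes. Of 586 results for called genes among those, 112 lost the call. A further 35 changes of sign concerned uncalled values, 15 of them with that centring. The count of apoptosis genes higher, 6, became 3 with Actb centring, 3 by the methods' test and 12 with array weights fitted gene by gene, an alternative chosen after seeing the data because the default weights did not converge. It ranged from 4 to 8 without 1 array. The count lower, 1, became 9 with Actb centring, 2 with the mean of probes (Cflar and Endog) and 3 with gene-by-gene weights, and ranged from 1 to 2 without 1 array. Among all genes the 1870 higher became 640 with Actb centring, 940 by the methods' test and 3004 with gene-by-gene weights (1081 without the third Rpt3+/+ array to 2332 without the second), and the 967 lower became 600 with median centring, 7989, 427 and 2359 (387 without the third Rpt3+/+ array to 1418 without the first). Of the other cell death genes the 20 higher became 9 with Actb centring and 13 by the methods' test (12 to 21 without 1 array). Their 8 lower became 5 with local background subtraction, with an offset of 16, with no filter and with default array weights, 4 with median centring, 39 with Actb centring, 3 with the value table, 2 by the methods' test and 17 with gene-by-gene weights (2 to 13 without 1 array). The cause of these changes was not tested.

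With the replicate numbers of the titles as a block, 5 apoptosis genes were higher and 1 lower, 18 and 6 of the other cell death genes, and 1722 and 873 of all genes, and no call of a member other than that of Bad changed. The deviations of same-numbered arrays from their group means correlated at 0.13, -0.44 and 0.10 over 14680 genes, and those of differently numbered arrays at up to 0.47 (the third Rpt3−/− and the second Rpt3+/+ array), so the numbers were not taken to pair the mice. The share of probes above background limits what dim genes can show. Among them are the 7 with a probe near background on some Rpt3+/+ array, Bad, Bik, Bcl2, Casp4, Xiap, Fas and Ripk3.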
